A study of Rattus norvegicus with 48 samples.

Results

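Gapdh, Actb and Ppia are genes that laboratories commonly use as references, dividing the RNA of other genes by theirs on the premise that their own RNA stays level. They were taken here by their Ensembl identifiers (Gapdh, ENSRNOG00000018630; Actb, ENSRNOG00000034254; Ppia, ENSRNOG00000027864) as 3 of the 15936 genes that both deposited count tables hold, and of 18997 distinct genes in the 2 tables. The symbols were given with the identifiers, since the tables list identifiers without names. The samples were patches of primary motor cortex cut by laser capture from 20 µm cryosections of wild-type male Sprague-Dawley rats, 12 to 14 weeks old, perfused with 4% paraformaldehyde. In 12 rats a single-shank silicon probe, a microelectrode of the Michigan type, had been in the cortex for 24 h (3 rats), 1 week (5 rats) or 6 weeks (4 rats). From each implanted rat, tissue within 100 µm of the device (near) and tissue about 500 µm away (far) was sequenced, the far material being pooled from several smaller pieces per library. In 3 naive rats without a device, tissue was taken in the same 2 formats, called here naive 100 and naive 500. Each of the 8 groups holds 6 libraries, 48 in all from 15 rats. Because 9 rats gave both hemispheres, counts were summed per rat and position, so that n counts rats.

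The 3 genes do different work. Gapdh encodes glyceraldehyde-3-phosphate dehydrogenase, an enzyme of glycolysis that oxidises a sugar phosphate and passes the electrons to NAD+. Actb encodes cytoplasmic β-actin, a subunit of the filaments that give cells shape and carry their movement; microglia and astrocytes, the glial cells known to react to an implant, remodel these filaments as they change shape. Ppia encodes cyclophilin A, a peptidyl-prolyl isomerase that helps proteins fold and is the cellular target of the drug cyclosporin. All 3 are transcribed in neurons and glia alike. In bulk tissue like this, fewer cells of a type and less RNA per cell cannot be told apart.

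The promoters of Gapdh and Ppia are shown as the regulatory sequence of a pair of genes in common use as references. The RefSeq table of promoters (GRCr8) matched 2 of the 3 genes. Each line gives the 100 bases before the annotated start on the gene's own strand, 5′ to 3′, with TATAAA in capitals.
Gapdh, chr4:159652468-159652567, minus strand: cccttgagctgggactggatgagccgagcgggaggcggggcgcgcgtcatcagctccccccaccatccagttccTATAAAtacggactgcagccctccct
Ppia, chr14:85493116-85493215, plus strand: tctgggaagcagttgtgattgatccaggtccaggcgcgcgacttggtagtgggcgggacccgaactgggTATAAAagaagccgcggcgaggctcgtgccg
The match to TATAAA began 26 bases before the start of Gapdh and 31 bases before that of Ppia. Among the table's 33469 promoter windows, cut to the same length, 3.86% held TATAAA on the given strand and 5.78% on either strand. GGGCGG, searched on both strands, matched once in the Ppia window and not in that of Gapdh, against 21.6% of all windows. CCAAT matched in neither window, against 17.1% of all windows. Bases G and C made up 65% of the Gapdh window and 62% of the Ppia window, where the median over all windows was 54%. None of these motifs overlapped another in the windows shown, and a match describes letters only.

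All 3 genes were counted in 48 of 48 libraries. Gapdh had 451 to 5764 counts per library, Actb 1602 to 19325 and Ppia 639 to 4589. At the lowest of these counts the relative counting error alone was 4.71% for Gapdh, 2.50% for Actb and 3.96% for Ppia, small beside the differences between libraries described next. These errors cover counting only, since reads were not collapsed by molecular identifiers. As a share of all counts, Gapdh took 0.00691% to 0.0730%, Actb 0.0306% to 0.245% and Ppia 0.00856% to 0.0480%. RefSeq lists 91 entries named as copies of Gapdh (82 of them pseudogenes), 11 of Actb (10 pseudogenes) and 17 of Ppia (15 pseudogenes). How the authors' estimates divided reads between a gene and such copies is uncertain, so each level below is uncertain to that extent.

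Library totals ran from 3363892 to 12844185 counts. Detected genes ran from 3062 to 16023 per library, and 4 implanted libraries had fewer than 6000: near libraries of rats 20, 23 and 29, and a far library of rat 23. The 2 most abundant genes took 30.8% of counts in near sums and 23.9% in far sums, a difference of 6.86 ± 5.47 percentage points (SD, n = 12 rats) that was positive in 12 of 12. In the naive rats those shares were 19.8% at 100 µm and 20.5% at 500 µm. Levels are therefore given as CPM, counts scaled to a common library size, with TMM factors (trimmed mean of M-values), a scaling that a few abundant genes move less than library totals. Results that turn on the scaling are given under each. The implanted and naive libraries came in separate tables and carry separate number series, so the implant and whatever else differed between those sets cannot be told apart.

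Gapdh had lower mean levels in each implanted group than in the naive groups, and it had the widest range of the 3 genes. The highest of its 30 rat sums was 6.30 times the lowest. In near tissue at 24 h Gapdh was 365.6 CPM in rat 25, 313.6 in rat 29 and 426.1 in rat 30. The 1-week near values were 410.9 in rat 10, 331.8 in rat 20, 87.3 in rat 22, 207.1 in rat 23 and 389.6 in rat 9. At 6 weeks it was 461.7 in rat 11, 397.5 in rat 17, 391.7 in rat 19 and 315.9 in rat 2. Rat 22 was far below every other near value, and rat 23 was the next lowest. In far tissue Gapdh was 385.9, 419.3 and 410.3 CPM in rats 25, 29 and 30 at 24 h. At 1 week after implantation they were 345.7, 263.3, 360.9, 268.6 and 325.8 in rats 10, 20, 22, 23 and 9, so rat 22 was not low there. At 6 weeks it was 348.5, 468.0, 384.2 and 275.6 in rats 11, 17, 19 and 2. The far values were packed at 24 h and spread more widely at 6 weeks. Naive rats n2, n3 and n5 had 391.3, 486.4 and 473.4 CPM at 100 µm and 428.3, 413.1 and 550.3 CPM at 500 µm. These overlapped every implanted group at the matching position apart from far tissue at 1 week, where all 5 rats were below all 3 naive rats. The share of all genes that separate from naive rats in this way is not given, so the separation describes these rats only.

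As group means ± SD, Gapdh was 368.4 ± 56.3 CPM near and 405.2 ± 17.3 far at 24 h (n = 3 rats). It was 285.3 ± 136 near and 312.9 ± 44.6 far at 1 week (n = 5), and 391.7 ± 59.7 near and 369.0 ± 80.0 far at 6 weeks (n = 4). The naive means were 450.4 ± 51.6 at 100 µm and 463.9 ± 75.2 at 500 µm (n = 3). In order from the highest mean, Gapdh went naive 500, naive 100, far 24 h, near 6 weeks, far 6 weeks, near 24 h, far 1 week and near 1 week. Every pair of neighbours in that order overlapped rat by rat.

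Actb had its highest level beside the device at 24 h and its lowest in naive tissue. Its highest rat sum was 3.80 times its lowest. In near tissue at 24 h Actb was 1735 CPM in rat 25, 994.3 in rat 29 and 959.3 in rat 30. Near values at 1 week were 1085 in rat 10, 762.2 in rat 20, 1024 in rat 22, 750.3 in rat 23 and 1078 in rat 9. At 6 weeks it was 619.9 in rat 11, 795.0 in rat 17, 914.0 in rat 19 and 851.5 in rat 2. Rat 25 stood above all other near values, and the other 2 rats at 24 h lay within the range of the 1-week rats. In far tissue Actb was 996.4, 700.2 and 711.1 CPM in rats 25, 29 and 30 at 24 h. The far values at 1 week were 773.4, 800.8, 777.2, 970.4 and 897.8 in rats 10, 20, 22, 23 and 9. At 6 weeks it was 498.9, 677.8, 807.4 and 794.6 in rats 11, 17, 19 and 2. Rat 25 was also the highest of the far rats, and rat 11 was the lowest in both positions. Naive rats n2, n3 and n5 had 530.7, 654.5 and 456.1 CPM at 100 µm and 606.5, 705.8 and 595.1 CPM at 500 µm. All near rats at 24 h and at 1 week lay above all naive 100 rats, and all far rats at 1 week lay above all naive 500 rats, while the other groups overlapped their naive counterparts. With so few rats, and no share over all genes beside them, these separations are a description of the rats sampled.

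The group means ± SD of Actb were 1230 ± 438 CPM near and 802.6 ± 168 far at 24 h (n = 3 rats). They were 939.9 ± 169 near and 843.9 ± 86.9 far at 1 week (n = 5), and 795.1 ± 126.5 near and 694.6 ± 143 far at 6 weeks (n = 4). In naive tissue Actb averaged 547.1 ± 100.2 CPM at 100 µm and 635.8 ± 60.9 at 500 µm (n = 3). From the highest mean, the order was near 24 h, near 1 week, far 1 week, far 24 h, near 6 weeks, far 6 weeks, naive 500 and naive 100. Neighbours in that order overlapped in every case.

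Ppia had nearly the same mean TMM-scaled level near the device at the 3 times, over rats that differed widely, and its rat sums spanned the smallest range, 3.13-fold. In near tissue at 24 h Ppia was 147.7 CPM in rat 25, 295.5 in rat 29 and 245.1 in rat 30. For 1 week the near values were 401.2 in rat 10, 128.0 in rat 20, 173.2 in rat 22, 192.1 in rat 23 and 232.5 in rat 9. At 6 weeks it was 216.7 in rat 11, 215.7 in rat 17, 203.2 in rat 19 and 254.4 in rat 2. The spread was widest at 1 week, where rats 10 and 20 were the highest and the lowest of the implanted near values. In far tissue Ppia was 204.5, 305.9 and 229.1 CPM in rats 25, 29 and 30 at 24 h. Far values at 1 week were 244.9, 348.1, 261.9, 272.2 and 220.7 in rats 10, 20, 22, 23 and 9. At 6 weeks it was 269.0, 336.2, 330.6 and 201.2 in rats 11, 17, 19 and 2. Rat 20, lowest near the device, was the highest of the far rats. Naive rats n2, n3 and n5 had 168.1, 320.5 and 154.3 CPM at 100 µm and 374.0, 328.9 and 315.8 CPM at 500 µm. The 3 far rats at 24 h lay below all naive 500 rats, and every other implanted group overlapped the naive rats of its position. That separation, too, has no share over all genes beside it.

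For Ppia the group means ± SD were 229.4 ± 75.2 CPM near and 246.5 ± 52.9 far at 24 h (n = 3 rats). At 1 week they were 225.4 ± 105 near and 269.6 ± 48.0 far (n = 5), and at 6 weeks 222.5 ± 22.1 near and 284.3 ± 63.2 far (n = 4). Naive tissue gave 214.3 ± 92.2 at 100 µm and 339.6 ± 30.5 at 500 µm (n = 3). Far groups thus ranked above near groups, with naive 500 at the top and naive 100 at the bottom, and all neighbours overlapped.

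**Figure D1:**
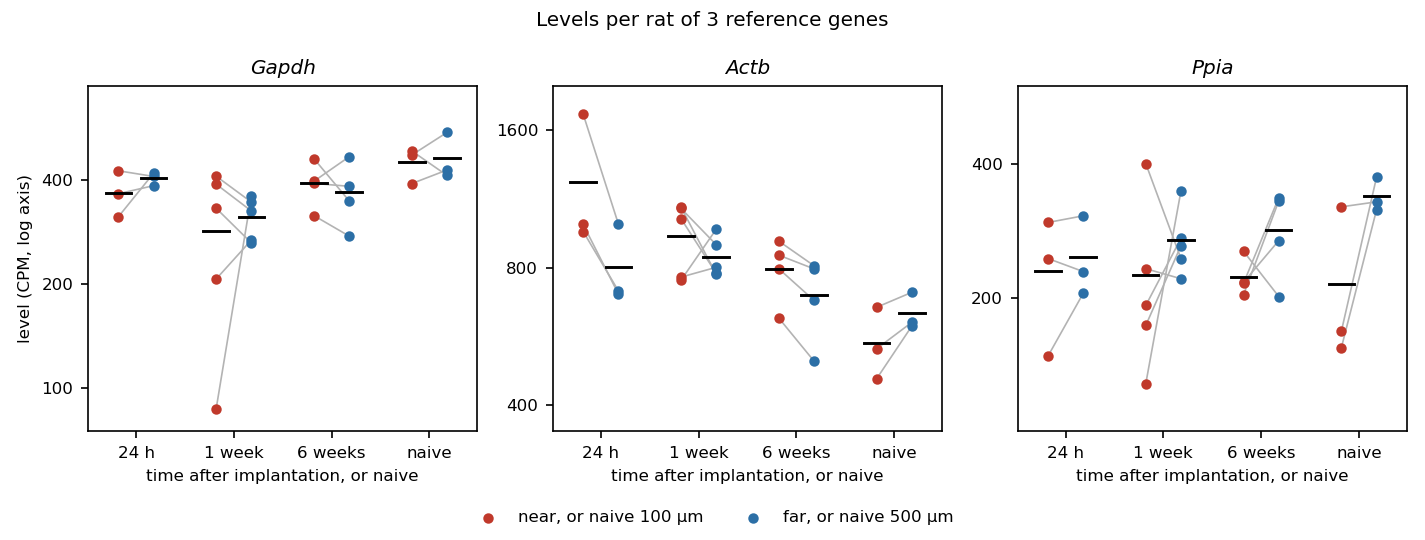
Level of Gapdh, Actb and Ppia in TMM-scaled CPM (vertical log axes) by time after implantation or naive; points are rats, red near or naive 100 and blue far or naive 500, grey lines join the positions of a rat, and black bars are group means. Actb near the device at 24 h lies between 959.3 and 1735 CPM, above all naive 100 rats (456.1 to 654.5), and the lowest Gapdh point, rat 22 near at 1 week, sits at 87.3 CPM.

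Near and far tissue of the same rat were compared in edgeR's quasi-likelihood test with the rat as a block and Benjamini-Hochberg adjustment over all genes. No member passed at adjusted p below 0.05 at any time, where 0.132% of genes passed at 24 h, 0.396% at 1 week and 0.0764% at 6 weeks. For Actb the log2 fold change near against far was 0.57 ± 0.23 (SE) at 24 h, with an unadjusted p of 0.0137 and an adjusted p of 1. It was 0.15 ± 0.18 at 1 week (adjusted p = 0.964) and 0.19 ± 0.20 at 6 weeks (adjusted p = 1). Its sign was positive at each time, although library totals turned the 6-week value to −0.07. Averaged over the 3 times, Actb was 0.30 ± 0.12 higher near (95% interval 0.07 to 0.53, unadjusted p = 0.0101, adjusted p = 0.304), where 1.51% of genes passed. The call for Actb turned on the scaling: with DESeq2's size factors in edgeR it was 0.48 (adjusted p = 0.00169, 1.07% of genes called), and with library totals it was 0.15 (adjusted p = 0.822). The DESeq2 test also called Actb at 24 h (0.76, adjusted p = 0.0352) and averaged over times (0.48, adjusted p = 0.00215), in comparisons where it called 3.69% and 8.17% of genes.

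The averages over times of Gapdh and Ppia did not share that direction under TMM scaling with all rats, although the sign of Gapdh was not settled. Gapdh near against far was −0.16 ± 0.33 at 24 h, −0.27 ± 0.26 at 1 week, 0.08 ± 0.28 at 6 weeks and −0.12 ± 0.17 averaged over times. With rat 22 left out, the 1-week value of Gapdh turned to 0.12 and its average over times to 0.02. With DESeq2's size factors that average turned to 0.06. Ppia was −0.15 ± 0.38, −0.34 ± 0.30 and −0.35 ± 0.33 at the 3 times and −0.28 ± 0.19 on average (adjusted p = 0.875), with its 24-h value turning to 0.04 under DESeq2's size factors, as that of Gapdh did to 0.03, and its 1-week value being −0.08 without rat 20. The 95% interval of the average over times was −0.45 to 0.21 for Gapdh and −0.66 to 0.10 for Ppia. The median log2 fold change of all genes tested was −0.08 at 24 h, −0.66 at 1 week, −0.05 at 6 weeks and −0.39 averaged over times. In the average over times all 3 members were thus higher near the device relative to the median gene. At 24 h, however, Gapdh and Ppia lay below the median gene, as Ppia did at 6 weeks. Without rat 20 the 1-week median was −0.23, and Gapdh (−0.44) lay below it. Whether the near to far difference itself varied with time was tested with 2 degrees of freedom, and no member passed (unadjusted p = 0.317 for Actb, 0.652 for Gapdh and 0.907 for Ppia, each with an adjusted p of 1), where 0.0278% of genes did.

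Rat by rat, Actb was higher near than far in 10 of 12 implanted rats, the exceptions being rats 20 and 23 at 1 week. The mean of its log2 differences was 0.27 ± 0.30 (SD, n = 12), with a 2-sided exact sign-flip permutation p of 0.0117, not adjusted for other genes. DESeq2's size factors gave 0.46, higher near in 11 of 12 (exact p = 0.00195), and library totals 0.12, higher in 8 of 12 (exact p = 0.286). Both exceptions held a library of few detected genes, and over the 9 rats without such a library the mean was 0.36 ± 0.21. That exclusion was chosen after seeing the data and removes both exceptions, so that every rat left is higher near by selection. Without only the 4 libraries themselves, edgeR gave Actb a smaller near to far value, 0.26 ± 0.14 averaged over times (unadjusted p = 0.0740, adjusted p = 0.756). At 24 h it was 0.43 ± 0.27 (unadjusted p = 0.115). Actb thus kept its direction in this mean under the 3 scalings but not its side of 0.05. Ppia was higher near in 4 of 12, with a mean of −0.29 ± 0.57 (exact p = 0.102), and library totals made this −0.44, higher near in 2 of 12 (exact p = 0.00879). Gapdh was higher near in 7 of 12, with a mean of −0.14 ± 0.66 (exact p = 0.672). Its mean was below 0 although most rats were above it, and the largest single difference was that of rat 22.

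The naive rats give the background of the same contrast, since no device lay at either position. Actb was lower at 100 µm than at 500 µm in 3 of 3 naive rats, by a mean log2 difference of −0.23 ± 0.14 (SD). Gapdh averaged −0.04 ± 0.24 and was higher at 100 µm in 1 of 3. Ppia averaged −0.74 ± 0.61 and was lower in 3 of 3. In edgeR none of the 3 passed (Ppia −0.79 ± 0.29 (SE), unadjusted p = 0.00606, adjusted p = 0.982), nor did any gene: 0% of 11839 genes were called, with 600 at an unadjusted p below 0.05. The DESeq2 test called 1352 genes there (11.4%), Ppia among them (−0.86, adjusted p = 0.0135). The median gene was 0.41 higher at 100 µm in that comparison. An exact permutation test over rats, 12 implanted against 3 naive (smallest possible p 0.00220), set the near to far difference of Actb at 0.50 above that of naive rats (p = 0.0154, unadjusted), but at 0.38 with library totals (p = 0.123) and 0.42 without naive rat n5 (p = 0.0879). The corresponding values were 0.45 for Ppia (exact p = 0.248) and −0.10 for Gapdh (exact p = 0.771).

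Against naive tissue of the matching position, the largest difference among the members was that of Actb beside the device. Near Actb was 1.19 ± 0.31 higher on the log2 scale at 24 h (2.28-fold, edgeR unadjusted p = 0.00017, adjusted p = 0.147). At 1 week it was 0.80 ± 0.28 higher (adjusted p = 0.405), and at 6 weeks 0.55 ± 0.29 (adjusted p = 1). The values were smaller at each later time, although the differences between times were not past the test described below. In these 3 comparisons 0.0578%, 0.123% and 0.0434% of genes passed, and no member did. The 24-h value of Actb passed with DESeq2's size factors in edgeR (1.42, adjusted p = 0.00470, 0.101% of genes called) and in the DESeq2 test (adjusted p = 0.00124, 2.89% called). It also passed without the filter on low counts (1.24, adjusted p = 0.0173, 0.170% called) and without rat 30 (1.34, adjusted p = 0.0226, 0.208% called), while without rat 25 it was 0.88 (adjusted p = 0.897) and without the 4 libraries of few genes 1.07 (adjusted p = 0.309). The 1-week value passed with DESeq2's size factors (1.11, adjusted p = 0.0242, 0.239% called) and in the DESeq2 test (adjusted p = 0.0121, 2.23% called).

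Far Actb was closer to its naive level, at 0.30 ± 0.21 for 24 h (0.13 without rat 25), 0.36 ± 0.19 for 1 week (adjusted p = 0.520) and 0.09 ± 0.20 for 6 weeks. In far tissue 0.00748%, 0.127% and 0.0598% of genes passed at the 3 times, and no member did. Gapdh was below naive in all 6 comparisons. Its largest differences were −0.64 ± 0.35 near (adjusted p = 0.664) and −0.62 ± 0.23 far (unadjusted p = 0.00842, adjusted p = 0.471), both at 1 week. The near value was −0.41 without rat 22 and −0.33 with DESeq2's size factors. At 6 weeks far Gapdh was −0.38 ± 0.24 (adjusted p = 0.717), and −0.23 without naive rat n5. Near Ppia against naive was 0.11 ± 0.46 at 24 h, 0.09 ± 0.42 at 1 week and 0.07 ± 0.43 at 6 weeks, so that the intervals were wide. These values moved to 0.29, 0.42 and 0.25 with DESeq2's size factors, to −0.21, 0.02 and −0.14 with library totals, and to 0.55, 0.52 and 0.48 without naive rat n3. Far Ppia was −0.50 ± 0.28 at 24 h (adjusted p = 0.654), −0.38 at 1 week and −0.30 at 6 weeks. The contrasts at the 3 times share the naive rats of their position, so the like sign of a gene's values across times is not separate evidence.

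**Figure D2:**
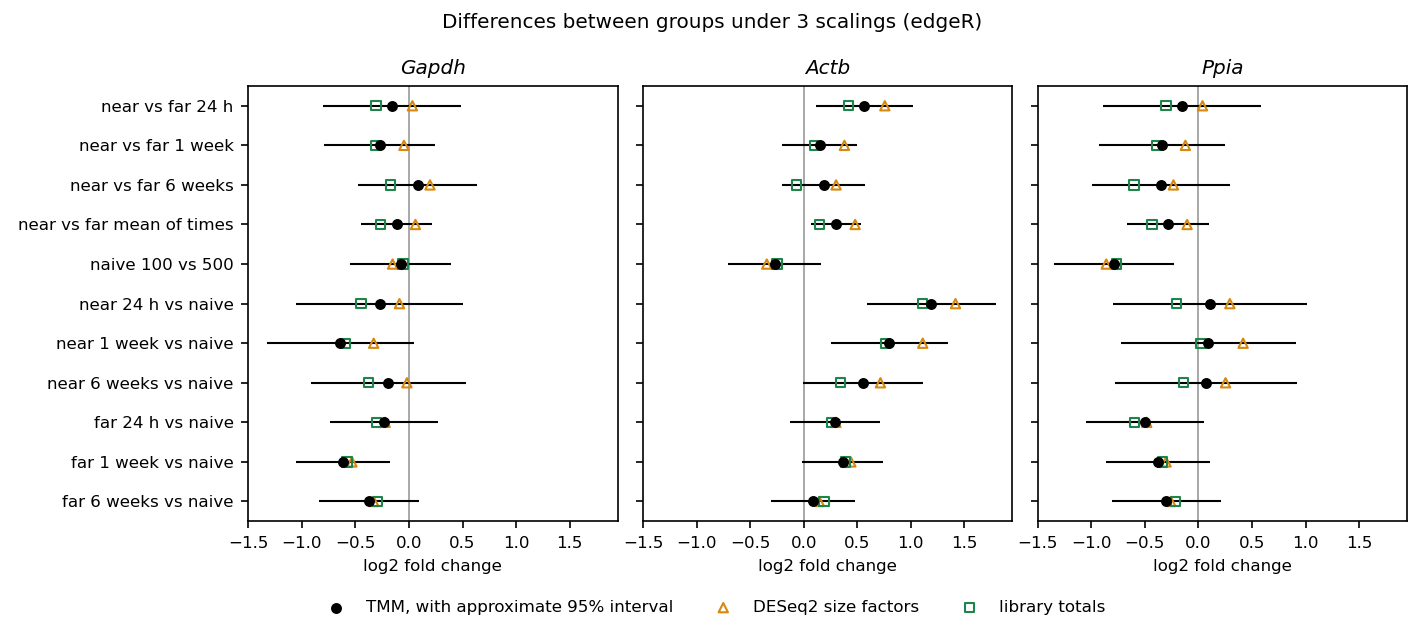
Log2 fold change of each gene (horizontal axes) in 11 comparisons from edgeR under 3 scalings; black points with lines are TMM values with approximate 95% intervals, triangles DESeq2's size factors and squares library totals. The triangles lie right of the squares for Actb near against far averaged over times (0.48 against 0.15), and the TMM interval of Actb near against naive at 24 h runs from 0.59 to 1.79.

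Over the 3 times within a position, no member passed. In near tissue the fitted levels of Actb spanned 0.67 on the log2 scale, those of Gapdh 0.45 and those of Ppia 0.07, with an unadjusted p of 0.0808, 0.388 and 0.988 in edgeR's test over times, where 0.0781% of genes passed. In far tissue the spans were 0.27 for Actb, 0.38 for Gapdh and 0.20 for Ppia, with an unadjusted p of 0.303, 0.226 and 0.758. Single rats moved these spans: near the device they were 0.29 for Actb without rat 25, 0.22 for Gapdh without rat 22 and 0.35 for Ppia without rat 10. In far tissue they were 0.15 for Actb without rat 11 and 0.39 for Ppia without rat 29. No gene passed there (0% of 12995, with 422 at an unadjusted p below 0.05, and 9 called by the DESeq2 test). The adjusted p of all 6 values was 1. Over the 14 edgeR comparisons, 0 of 42 member tests passed, where 0% to 1.51% of all genes passed in a comparison. Of the 42, 6 had an unadjusted p below 0.05, as 1.6% to 9.43% of all genes did in a comparison. The DESeq2 test called 5 of the 42, and 0.00694% to 11.4% of all genes in a comparison. The comparisons share rats, so these are not counts of separate tests. A p that misses the threshold does not show that a gene stayed level. The SEs and intervals given above are approximate and hold for TMM scaling. They do not cover the shifts with scaling and with single rats.

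Ratios between the members need no scaling by library, since both counts come from the same library, and they show how far the choice of reference matters. In the implanted rats log2 Actb/Gapdh, from counts that were not divided by gene length, averaged 1.32 ± 0.44 (SD, n = 12) with both positions summed. In the naive rats it averaged 0.36 ± 0.28 (n = 3). Counts of Actb per count of Gapdh were thus 1.95 times as high in the implanted rats, a log2 difference of 0.96 (2-sided exact permutation p = 0.00440, adjusted over the 3 ratios 0.0132). Of the 12 implanted rats, 11 were above all 3 naive rats, whose values ran from 0.04 to 0.57. Left-out rats gave differences of 0.80 to 1.07, and without naive rat n2 or n5 the adjusted p was 0.0659. At matched positions the difference was 1.28 near and 0.68 far.

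Log2 Actb/Ppia was 0.68 higher in implanted than in naive rats (1.61-fold, 11 of 12 above all naive; exact p = 0.0352, adjusted 0.0527), with adjusted values of 0.00824 to 0.132 over the alternatives run. For log2 Ppia/Gapdh the difference was 0.28 (exact p = 0.222, adjusted 0.222). With both positions summed, the pair without Actb was thus the one with the smallest difference. Its own spread among implanted rats was still 0.33 (SD). At matched positions log2 Ppia/Gapdh was 0.59 higher than naive near and 0.04 higher far, and log2 Actb/Ppia 0.69 and 0.64 higher. As for the levels, implant and table of origin cannot be told apart in any of these comparisons with naive rats.

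Within implanted rats, log2 Actb/Ppia was 0.56 ± 0.54 (SD, n = 12) higher near than far, or 1.48-fold, and positive in 10 of 12 (exact sign-flip p = 0.00586, adjusted over the 3 ratios 0.0176). The exceptions were rats 10 and 2. Naive rats gave 0.51 ± 0.53 for the same 2 positions (1.43-fold, positive in 2 of 3), and the implanted rats differed from them by 0.05 (exact permutation p = 0.879). The shift of this ratio between positions was thus also measured in tissue without a device.

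Log2 Actb/Gapdh was 0.41 ± 0.75 higher near than far and positive in 9 of 12 (exact p = 0.0552, adjusted 0.0828). In rat 22 it was 3.55 near against 1.11 far, and without that rat the mean difference was 0.22; without rat 20 it was 0.48 (exact p = 0.0166, adjusted 0.0249), and without the 4 libraries of few genes 0.42 (exact p = 0.0244, adjusted 0.0410). By time the difference was 0.73 at 24 h (3 of 3 positive, exact p = 0.25, the smallest that 3 rats allow), 0.46 at 1 week and 0.11 at 6 weeks. Without rat 22 the 1-week mean was −0.04, and without rat 17 the 6-week mean was −0.01. In naive rats it was −0.19 ± 0.14 and positive in 0 of 3, which differed from the implanted rats by 0.60 (exact permutation p = 0.178). Log2 Ppia/Gapdh averaged −0.16 ± 0.78 and was positive in 5 of 12 (exact p = 0.510), with a naive mean of −0.70 ± 0.39. Rats 20 and 22 had the largest differences of this ratio, −1.78 and 1.45, in opposite directions.

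**Figure D3:**
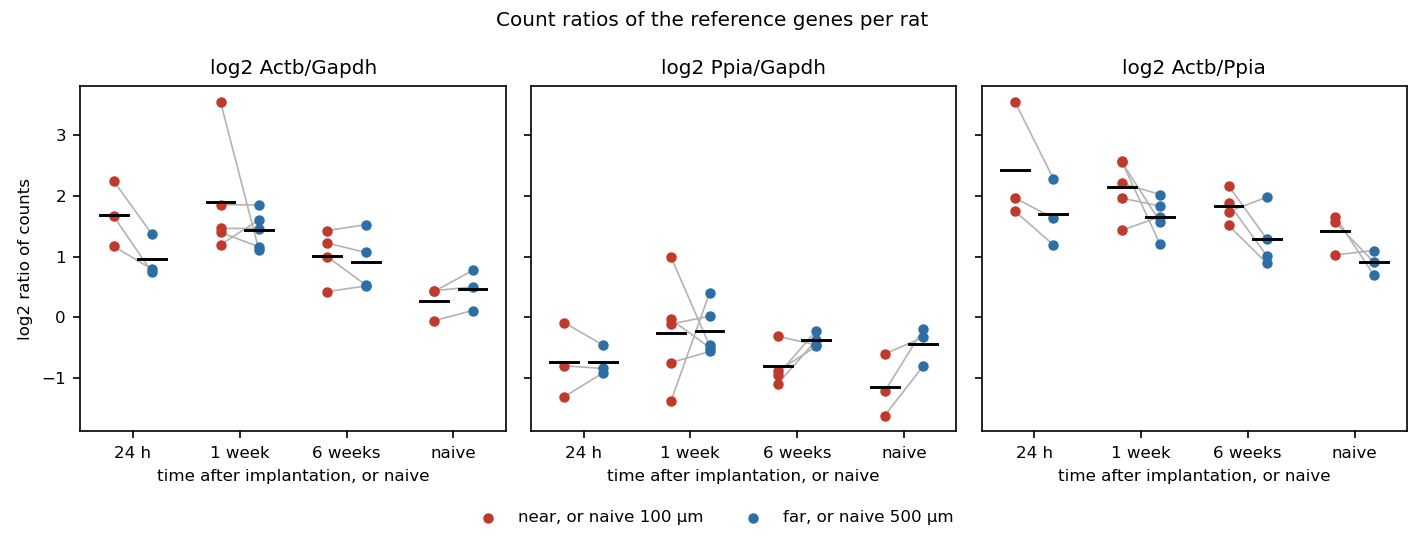
Log2 ratio of summed counts for each pair of members (vertical axes) by time after implantation or naive; points are rats, red near or naive 100 and blue far or naive 500, grey lines join the positions of a rat, and black bars are group means. Log2 Actb/Gapdh of the naive rats lies between −0.05 and 0.77 in the single positions, and the highest point of that ratio, 3.55, is rat 22 near at 1 week.

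As a description of stability, the SD of each member's log2 CPM over the 24 implanted rat sums was set beside that of all genes whose mean level lay within 1 log2 unit. Actb had an SD of 0.345, smaller than that of most of its neighbours: 15 of 138 genes (10.9%) had a smaller one, and their median was 0.474. Ppia had an SD of 0.388, with 68 of 808 (8.42%) below it and a median of 0.571. Gapdh had an SD of 0.497, with 221 of 531 (41.6%) below it and a median of 0.525. Gapdh was therefore an ordinary gene for its level by this measure. Without rat 22 its SD was 0.291, and 6 of 506 genes (1.19%) had a smaller one, so that a single rat set its place. The near sum of rat 22 was 1 library of 6527066 counts and 9565 detected genes, with 38.6% of counts in the 2 most abundant genes. Whether any of these bears on its Gapdh value was not tested.

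The place of Actb turned on the scaling, on the libraries of few genes and on single rats. Without the 4 sums that hold those libraries its SD was 0.369 and 28.3% of its neighbours varied less. The same exclusion left 60.0% of neighbours lower for Gapdh (SD 0.515) and 10.15% for Ppia (SD 0.355). Without rat 25 the SD of Actb was 0.271 (4.14% lower), and without rat 11 it was 0.299 (2.46%). With DESeq2's size factors the SD of Actb was 0.424 and 53.6% of its neighbours varied less. With library totals it was 0.434 and 28.3% did. Ppia stayed low under both, at 0.355 (5.94% of neighbours lower) and 0.374 (2.23%). For Gapdh the values were 0.467 (46.1%) and 0.607 (59.5%). With the 6 naive sums added, the SDs were 0.484 for Gapdh, 0.388 for Actb and 0.418 for Ppia, and 41.5%, 28.2% and 12.3% of neighbours were lower. The ratios spread more than any single level scaled by TMM: over the 24 sums the SD was 0.648 for log2 Actb/Gapdh, 0.578 for log2 Actb/Ppia and 0.533 for log2 Ppia/Gapdh. A log ratio carries the spread of both its genes where these do not vary together, so the larger SDs are no separate finding.

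**Figure D4:**
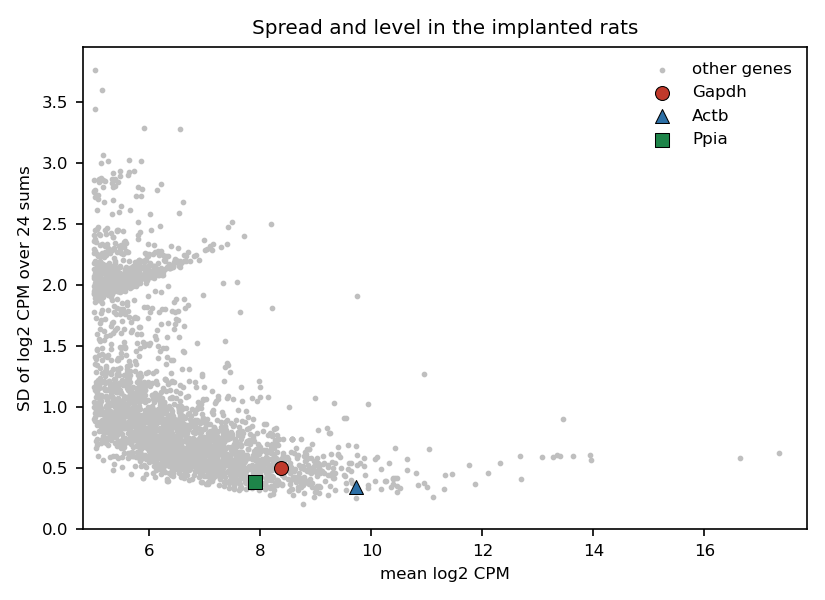
SD of log2 CPM over 24 implanted rat sums (vertical axis) against mean log2 CPM (horizontal axis) for genes with a mean of at least 5; coloured markers are the members and grey points are other genes. Under TMM scaling Actb (0.345) and Ppia (0.388) lie low among genes of like level, with 10.9% and 8.42% of these lower, and Gapdh (0.497) in their middle.

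Where both hemispheres of a rat were sampled, the members varied between them as well as between rats. Over 18 pairs of libraries from 9 rats, the SD of log2 CPM between the hemispheres of a rat was 0.578 for Gapdh, 0.348 for Actb and 0.593 for Ppia. The SD between rat sums within a group, where a sum can hold both hemispheres, was 0.445, 0.275 and 0.402. Library totals turned that order for Gapdh (0.441 between hemispheres, 0.582 between rats) and Actb (0.345 and 0.412), but not for Ppia (0.536 and 0.335). The largest gap for Gapdh was near tissue of rat 29 at 24 h, with 367.4 CPM on the left and 99.4 on the right, whose library had 3062 detected genes. For Actb it was the naive 500 tissue of rat n2, 288.3 against 854.0 CPM. For Ppia it was near tissue of rat 17, 342.7 against 105.9 CPM. On the log2 scale these gaps were 1.89, 1.57 and 1.69, each the largest of 18 pairs of single libraries. The median gaps were 0.44, 0.16 and 0.49. The largest near to far difference in the sums of 1 implanted rat was −2.05 for Gapdh (rat 22), 0.80 for Actb (rat 25) and −1.44 for Ppia (rat 20).

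**Figure D5:**
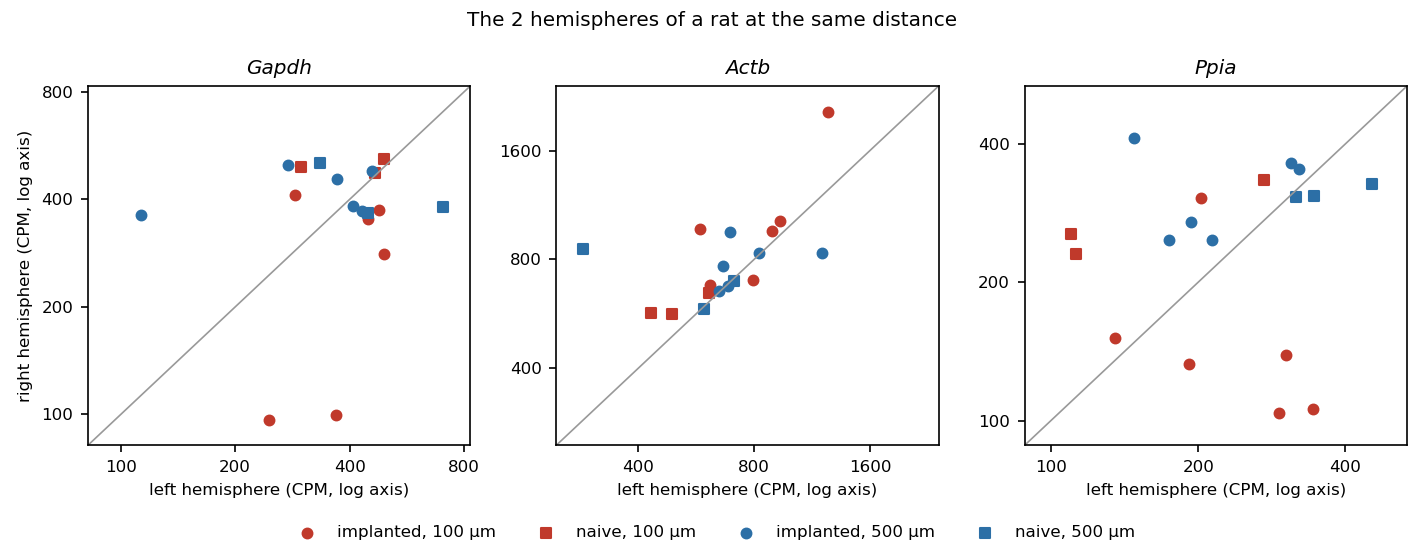
Right against left hemisphere level of each gene in TMM-scaled CPM (log axes) for 18 pairs of libraries from 9 rats; circles are implanted and squares naive rats, red marks 100 µm and blue 500 µm, and the line marks equal levels. The pair farthest from the line is 367.4 left against 99.4 right for Gapdh, 288.3 against 854.0 for Actb and 342.7 against 105.9 for Ppia.

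The 3 members did not follow one another. Over the 24 implanted sums, Spearman's rho was −0.19 between Gapdh and Actb, 0.23 between Gapdh and Ppia and −0.09 between Actb and Ppia. These values describe sums that share rats, depth and scaling. Among 2981 other genes with a mean of at least 5 log2 CPM, those with the most similar pattern were ENSRNOG00000025832 for Gapdh (rho 0.64), ENSRNOG00000008981 for Actb (rho 0.79) and ENSRNOG00000010834 for Ppia (rho 0.79). Each is the highest of 2981 values, and its rho is a description of these sums.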

How the data were processed

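The members and lists were chosen with earlier results of these data known. The submitters' processing notes name the build Rnor_6.0 and, without roles, RSEM 1.3.1, STAR 2.6.1b, DESeq2, cutadapt 2.3 and FastQC 0.11.8. The deposited values are whole-number counts per Ensembl gene, unnormalised, in a table of 17317 genes for implanted rats and one of 17616 for naive rats; no source used here says whether they are rounded RSEM estimates. Libraries were stranded and sequenced with 150 paired-end cycles, per the labels. Marker and pathway lists were not analysed here, since the identifiers could not be paired with symbols.

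Counts were summed per rat and position. edgeR 4.0.16 (R 4.3.3) was fitted to all genes: filterByExpr, TMM, robust quasi-likelihood, with the rat as a block for near against far tissue, and Benjamini-Hochberg adjustment at 0.05. The ± beside a log2 fold change is its size divided by the square root of F. The pairing comes from the labels, which give the rat of each library. Across genes, near and far deviations from the group mean had a correlation within a rat of −0.02 to 0.24 (2982 genes), above 0.1 in 3 of 15 rats. CPM were computed over the genes in both tables. Ratios used the summed counts without a pseudocount and exact permutation tests that enumerated every pattern (NumPy 2.4.6). The rule for named genes took the 3 members and the gene most like each. Scripts were tested on simulated data. Alternatives were DESeq2 1.42.0, its size factors, library totals, no low-count filter, unsummed libraries, no block and each rat left out. Chosen after seeing the data were leaving out the 4 libraries with few genes, totals without the 2 most abundant genes, the sign-flip test and the comparison of near to far differences with naive rats.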

Additional observations from a re-analysis of the deposited data

Results flagged for a closer look

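Over 24 groups of 4 or 5 rats examined for a value far from the others, 1 was found, where chance gives about 1 in 20. It was log2 Actb/Gapdh near the device at 1 week in rat 22, at 3.55, where the other 4 rats ran from 1.20 to 1.86; the gap was 0.721 of the range, against a limit of 0.710.

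In the following comparisons, under TMM scaling for Actb, every rat of one group moved one way and every naive rat the other way between positions, a difference that was not tested time by time. They were picked from the members and ratios because they met this rule. The share of all genes that meet it is not given, and with so few rats per time it can be met by chance. The near to far log2 difference of Actb at 24 h exceeded that of the naive rats by 0.81, and at 6 weeks by 0.43. For log2 Actb/Gapdh at 24 h the excess was 0.92. With library totals the excess of Actb was 0.67 at 24 h and 0.19 at 6 weeks, and Actb was higher near in 2 of 3 rats and 2 of 4 rats, so that the rats of those times no longer all moved one way. The tests over all 12 implanted rats are those given with the naive background.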

How the results depend on the processing

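Of 894 alternatives to the 45 results on single members (edgeR comparisons and near to far differences against naive rats), 853 kept direction and side of the threshold, 11 passed it newly, 2 lost it and 28 changed sign. The sign-flip test of Actb counts among those passing newly by a p that is not adjusted over genes. The lost calls were of an exact permutation p that was not adjusted either. Of 168 alternatives to the 12 ratio results, 153 kept both, 8 passed newly, 2 lost the call and 5 changed sign. The cause of these changes was not tested.

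With DESeq2's size factors Actb passed near against naive at 24 h (log2 1.42) and 1 week (1.11) and near against far averaged over times (0.48). The DESeq2 test gave the same 1.42, 1.11 and 0.48, and also called Actb near against far at 24 h (0.76) and Ppia between naive positions (−0.86). Without the low-count filter Actb at 24 h against naive passed (1.24). The sign-flip test over rats gave Actb near against far 0.27 with an exact p of 0.0117, which is not adjusted over genes. The edgeR test of the average over times had an unadjusted p of 0.0101 and missed the threshold only after adjustment, so the 2 tests did not differ in their unadjusted result. Under DESeq2's size factors, in edgeR and DESeq2 alike, near against far turned to 0.031 for Gapdh and 0.038 for Ppia at 24 h and to 0.060 for Gapdh averaged over times, and the near to far difference of Gapdh against naive rats turned to 0.18. Library totals turned near against far at 6 weeks to −0.068 for Actb and −0.18 for Gapdh, and Ppia near against naive to −0.21 at 24 h and −0.14 at 6 weeks. They lowered the excess of Actb's near to far difference over that of naive rats from 0.50 to 0.38, with an unadjusted exact permutation p of 0.123. They also moved the SD of Gapdh to 0.607, of Actb to 0.434 (0.424 with size factors) and of Gapdh between hemispheres to 0.441. Unsummed libraries turned Gapdh near against far at 6 weeks to −0.0032 and Ppia near against naive at 24 h to −0.068. Averaging the libraries' ratios made Actb/Ppia pass against naive (0.73) and turned its near to far difference from naive to −0.068, as leaving out the 4 libraries of few genes did (−0.081); leaving those out also made Actb/Gapdh near against far pass (0.42).

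Without the rat as a replicate block, Actb near against far was 0.61 at 24 h and 0.32 averaged over times, and no member's call changed.

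Leaving out each rat, the ranges of near against naive were 0.88 to 1.37 for Actb at 24 h, and for Ppia −0.13 to 0.55 (24 h), −0.23 to 0.52 (1 week) and −0.081 to 0.48 (6 weeks). Near against far ran from −0.44 to 0.12 for Gapdh at 1 week, −0.015 to 0.19 at 6 weeks and −0.17 to 0.023 averaged over times, from −0.26 to 0.014 for Ppia at 24 h, and from −0.21 to 0.0084 for Gapdh between naive positions. Actb/Gapdh ran from 0.22 to 0.48 near against far and 0.80 to 1.07 against naive, and Actb/Ppia from 0.58 to 0.74 against naive. Near to far differences against naive ran from −0.19 to 0.075 for Gapdh, 0.42 to 0.56 for Actb and −0.24 to 0.27 for Actb/Ppia. SDs ran from 0.291 to 0.517 for Gapdh and 0.271 to 0.360 for Actb.

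The number of genes called depended on the tool. For near against far averaged over times it was 217, 83 to 343 over the other edgeR settings and 1176 with DESeq2. At 24 h it was 19 (0 to 41, DESeq2 532), at 1 week 57 (1 to 79, 1306) and at 6 weeks 11 (1 to 41, 331). Near against naive it was 8 (6 to 36, 400), 17 (7 to 48, 308) and 6 (2 to 18, 183) at the 3 times, and far against naive 1 (1 to 9, 680), 17 (4 to 22, 777) and 8 (2 to 18, 659). Over times it was 10 near (2 to 25, 6), 0 far (0 to 7, 9) and 4 for the near to far difference (0 to 19, 1), and between naive positions 0 (0 to 9, 1352).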
